A study of Mus musculus with 23 samples.

Results

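Apoe and 9 other genes of lipid transport were examined in RNA-seq counts from the hippocampi of 23 mice. The 9 load lipids onto ApoE particles, take the particles up, convert cholesterol, release fatty acids from lipoproteins or regulate such genes. The 10 genes were found by their symbols in the table of 37173 genes. They were Apoe, Lpl, Abca1, Abcg1, Nr1h2, Nr1h3, Soat1, Ch25h, Lrp1 and Cyp46a1, and all 10 were among the 19423 genes with enough reads to be tested. The choice used their known roles, but it was made with earlier results of these data known.

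The mice were about 5 months old and each gave 1 library from both hippocampi. Wild-type mice (WT, n = 6) were compared with 3 other groups. The first lacked p16, a product of Cdkn2a that inhibits cyclin D kinases, and was titled P16 KO (p16KO, n = 6). The second was homozygous for the knock-in allele App NLGF (AppNLGF, n = 5), in which the mouse App gene itself carries mutations of familial Alzheimer's disease, so that no transgene promoter drives it. The third carried both changes and was titled APP<NLGF/NLGF>P16<KO/KO> (AppNLGF_p16KO, n = 6). The labels number the animals from 1 to 23 and name no batch, litter or sex, and nothing ties animals of different groups together. How the p16 allele was made is not given in the sources used here.

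ApoE is the main lipid carrier made inside the brain, chiefly by astrocytes and, around amyloid, by microglia. The transporters ABCA1 and ABCG1 move cholesterol and phospholipid onto it, and the liver X receptors (LXR; Nr1h2 encodes LXR beta and Nr1h3 LXR alpha) raise the transcription of Apoe, Abca1 and Abcg1 when cells hold excess sterol. LRP1 takes up ApoE particles, lipoprotein lipase (Lpl) releases fatty acids from lipoproteins, ACAT1 (Soat1) stores cholesterol as esters, and 2 enzymes hydroxylate it: CYP46A1 in neurons, for export across the blood-brain barrier, and cholesterol 25-hydroxylase (Ch25h), an enzyme of activated myeloid cells.

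With the App knock-in, 0 of the 10 genes passed the test at the level of whole hippocampus. Ch25h had the largest difference in AppNLGF minus WT, with a median of 0.786 CPM (a gene's count scaled to the total of its library) in AppNLGF and 0.393 in WT, and whether the effect averaged over p16 genotypes was called turned on 1 p16KO library with 337 reads. Apoe itself was higher in every p16KO library than in every WT library, which 1.21% of all genes also showed. The difference was 18.6% on average (not called). The level of Apoe varied with a property of the libraries, the balance between long and short genes. Gpr183, the receptor for an oxysterol made from the Ch25h product, rose in the knock-in effect averaged over p16 genotypes. It was the 1 gene called there of 90 other lipid transport genes, beside 0.793% of all genes. In AppNLGF minus WT it was not called (edgeR adjusted p = 0.161).

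Libraries held 40693561 to 61178839 counts, and none of the 10 genes was at 0 in any. Xist marked 2 of 5 AppNLGF libraries as female and 3 of 6 in each other group. Cdkn2a had at most 9 reads in any library. With p16 intact it had 0 to 6 reads (WT) and 2 to 9 (AppNLGF), against 0 to 2 (p16KO) and 0 to 8 (AppNLGF_p16KO) where it was labelled as lost, so these counts do not check the p16 labels. App differed by -0.10 ± 0.05 (log2, SE) between AppNLGF and WT (edgeR adjusted p = 0.571). Hippocampal markers such as Prox1 and Zbtb20 were present in every library, with 10 of 10 genes of that list above 0. AppNLGF_p16KO 21 stood apart in markers, with the lowest hippocampal sum (832 CPM, the others at least 1035), the lowest neuronal sum (11499, the others at least 11897) and the highest oligodendrocyte sum (8781, the others at most 6828). It was also an extreme library for Apoe, Lpl and Nr1h2, and the part of these markers was not tested. Choroid plexus markers, from tissue next to the hippocampus, summed to between 131 and 5819 CPM over the 23 libraries. Differences are log2 changes ± SE from edgeR's quasi-likelihood test, with p-values adjusted by Benjamini-Hochberg over the 19423 genes, and a gene was called at an adjusted p under 0.05.

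Promoter sequences are shown for Abca1 and Ch25h, since the liver X receptors act at the first and the second belongs to the gene with the largest difference of the 10 in AppNLGF minus WT. Both are the 250 bases before the RefSeq start (GRCm38.p6), on the minus strand, written 5′ to 3′ along the gene: chr4:53159896-53160145 for Abca1 and chr19:34475149-34475398 for Ch25h. In Abca1 the capitals mark a match to GGTTANNNNNGGTCA, a form of the direct repeat bound by LXR and its partner RXR. The match lies on the opposite strand, where it reads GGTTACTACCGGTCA, 67 to 53 bases before the start. In Ch25h the capitals mark the cyclic AMP response element TGACGTCA, 61 to 54 bases before the start.
Abca1: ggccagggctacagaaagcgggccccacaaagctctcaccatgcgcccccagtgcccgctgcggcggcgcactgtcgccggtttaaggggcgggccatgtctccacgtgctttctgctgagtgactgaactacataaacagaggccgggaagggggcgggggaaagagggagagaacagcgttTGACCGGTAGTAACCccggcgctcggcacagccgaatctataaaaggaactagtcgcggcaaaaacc
Ch25h: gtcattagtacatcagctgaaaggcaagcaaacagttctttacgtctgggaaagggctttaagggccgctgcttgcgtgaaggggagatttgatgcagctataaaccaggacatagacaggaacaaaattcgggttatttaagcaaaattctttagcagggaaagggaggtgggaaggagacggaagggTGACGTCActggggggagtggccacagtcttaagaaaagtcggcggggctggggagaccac
Of all 32851 promoter windows of the same length, searched on both strands, 15 (0.0457%) held the first motif and 508 (1.55%) the second. The forms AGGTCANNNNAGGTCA and GGTCANNNNNGGTCA, of which the second also covers the first, were in 5 (0.0152%) and 21 (0.0639%) of all windows and in 0 of the 11 windows of 8 members with an entry. These matches describe letters only.

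Per kilobase of exon, Apoe stood far above the rest, with 615 ± 23.8 CPM per kb in WT (SD, n = 6). Cyp46a1 came second with 43.9 ± 2.36 CPM per kb. Lrp1 (15.2 ± 3.75), Nr1h2 (11.8 ± 0.648) and Abcg1 (11.5 ± 0.593) followed, and their ranges over 23 libraries overlapped from one to the next. Abca1 (5.72 ± 0.361), Soat1 (4.89 ± 0.301), Lpl (3.68 ± 1.28), Nr1h3 (1.12 ± 0.0727) and Ch25h (0.261 ± 0.0972) formed a lower chain whose neighbours also overlapped. Scaled by the longest transcript instead of all exons, Lrp1 and Nr1h2 exchanged ranks and Lpl moved up to rank 6, so the order within each chain depends on the gene model.

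**Figure D1:**
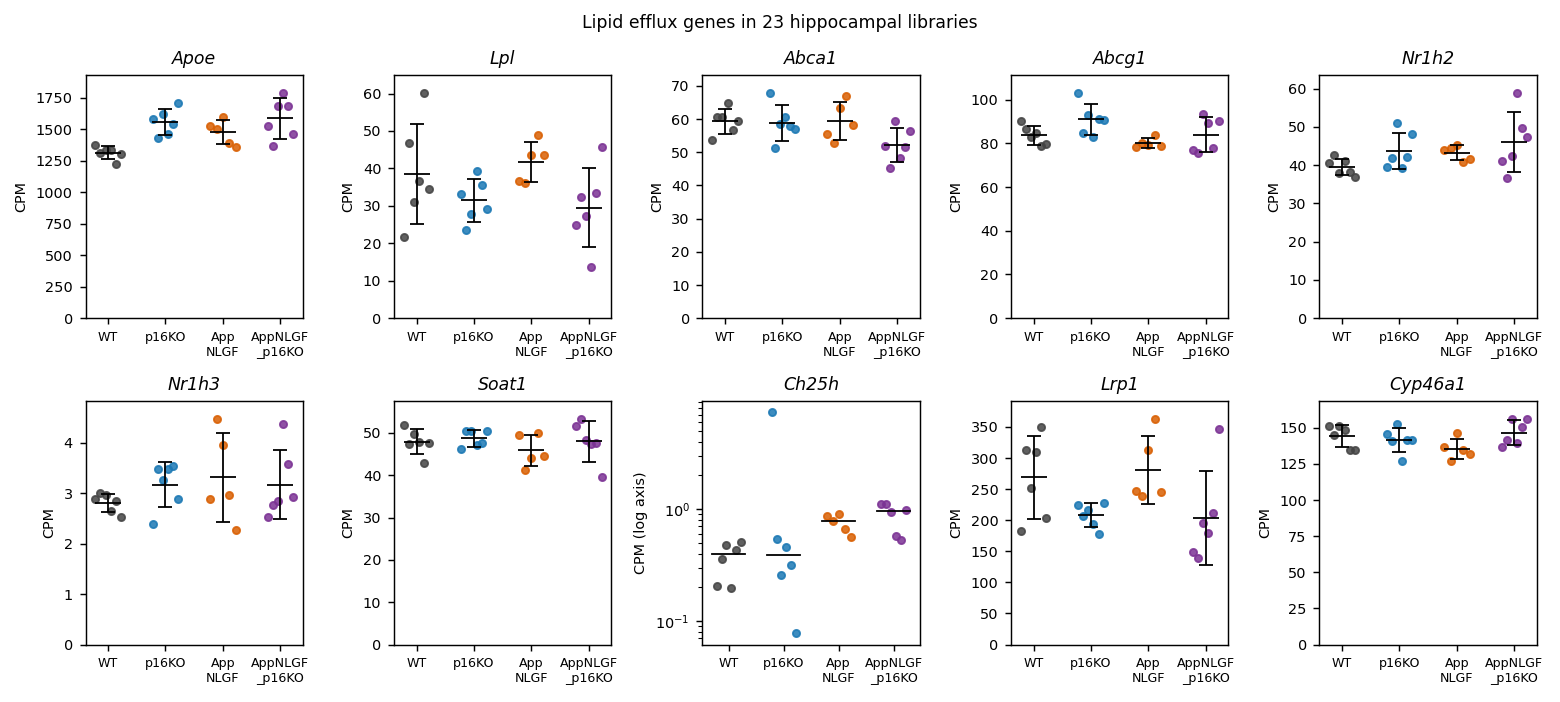
CPM of the 10 genes in each library (points), by genotype; bars are the mean ± SD, except for Ch25h, which has a log axis and a line at the median. Apoe of p16KO lies above WT without overlap, which 1.21% of all genes also showed, and Ch25h of 1 p16KO library reaches 7.41 CPM.

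The first question was whether the App knock-in moved these genes. In AppNLGF minus WT, 0 of 10 members were called, against 0.319% of all genes tested (62 genes, 59 of them higher). In AppNLGF_p16KO minus p16KO, 0 of 10 were called, against 0.247% of all genes (48 genes, 43 higher). In the App effect averaged over both p16 genotypes, 0 of 10 were called, against 0.793% (154 genes, 126 higher). DESeq2 called 0 of 9 members in each of these and gave no adjusted p for Ch25h. At an unadjusted p under 0.05, edgeR had 1 member in AppNLGF minus WT (Apoe), 1 in AppNLGF_p16KO minus p16KO (Abca1) and 2 in the average (Apoe and Abcg1), beside 8.54%, 7.89% and 10.4% of all genes. The members' median log2 change was 0.09, -0.03 and 0.02, beside a median over all genes of 0.00, 0.01 and 0.00.

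The second question was whether loss of p16 moved them. In p16KO minus WT, 0 of 10 were called, against 0.309% of all genes (60 genes, 51 higher), while DESeq2 called 1, Apoe. In AppNLGF_p16KO minus AppNLGF, 0 of 10 were called by edgeR, against 0.0309% of all genes (6 genes, 5 higher), and 0 of 9 by DESeq2. The unadjusted p was under 0.05 for 2 members (Apoe and Ch25h) and for 3 members (Abca1, Lrp1 and Cyp46a1), beside 15.8% and 23.5% of all genes. The members' median log2 change was 0.07 in each of the 2 comparisons, beside -0.01 and 0.01 over all genes. These comparisons share their control groups with the ones above.

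The third question was whether one change altered the effect of the other. The interaction called 0 of 10 members and 0 of all genes (0%), by edgeR, with 0 members and 5.26% of all genes (1021) at an unadjusted p under 0.05. DESeq2 called 1 gene, which was not a member. The members' median interaction was -0.12, beside 0.00 over all genes.

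**Figure D2:**
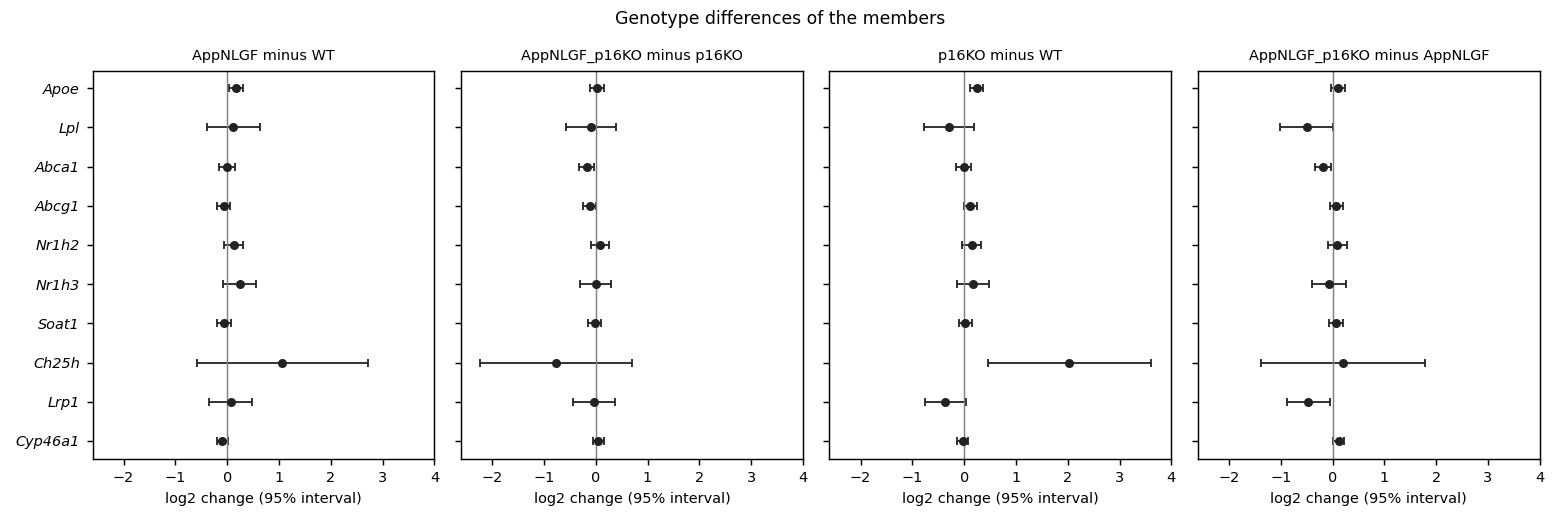
Log2 change of each member with its 95% confidence interval in the 4 comparisons between neighbouring genotypes; the grey line is at 0. Ch25h has the widest interval in each of the 4, and Apoe in p16KO minus WT lies at 0.25.

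Apoe (ENSMUSG00000002985, GRCm38 chromosome 7, 19696109 to 19699188, minus strand) encodes the carrier itself. In WT it ran from 1224 to 1375 CPM with a median of 1323. In p16KO it ran from 1430 to 1711 CPM with a median of 1562. The 5 AppNLGF libraries held 1528, 1505, 1594, 1393 and 1361 CPM, and AppNLGF_p16KO ran from 1368 to 1791 with a median of 1604. Each p16KO library was above each WT library, which 1.21% of all genes also showed, and AppNLGF overlapped WT only through its lowest library.

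Apoe was 0.25 ± 0.06 (log2) higher in p16KO than in WT, from 1315 ± 50.8 to 1559 ± 104 CPM (SD, n = 6 each), with an adjusted p of 0.0737. It was called by DESeq2 (adjusted p = 0.0138; 2.41% of all genes called), by a fit of those 2 groups alone (0.0237; 1.95%), without AppNLGF_p16KO 21 and 22 (0.0293; 1.36%) and without p16KO 8 (0.0359; 1.23%). In AppNLGF it was 0.17 ± 0.06 higher than in WT, above the WT mean in 5 of 5 libraries (adjusted p = 0.450). With p16 absent the App difference was 0.02 ± 0.06, with a 95% interval from -0.10 to 0.15. Averaged over both p16 genotypes the App effect was 0.10, with an adjusted p of 0.451. In whole tissue, more cells of a type and more RNA per cell cannot be told apart. The 12 astrocyte markers summed to 6209 to 7022 CPM (p16KO) and 6501 to 6816 CPM (WT). With the knock-in their sum was 6670 to 7302 CPM (AppNLGF) and 6628 to 7159 CPM (AppNLGF_p16KO), and none of the 12 was at 0 in any library. In p16KO minus WT, 0 of these 12 were called, and their part in the Apoe difference was not tested.

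A contrast of p16 loss averaged over both App genotypes was added after the values had been seen. It called 13% of all genes (2522; 1488 higher and 1034 lower) and 1 of 10 members, Apoe, by 0.17 ± 0.04 (adjusted p = 0.0183), so the members' share lay near that of all genes. The Apoe call was lost without AppNLGF_p16KO 21 and 22 (adjusted p = 0.0699), and without AppNLGF 16, where Apoe lay just past the threshold and 762 genes were called.

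The libraries differed in the balance of long and short transcripts, and several members moved with it. The share of all genes that did so was not determined, so whether members did so more often is not known. A length index was taken for each library: the median log2 deviation of 1494 genes with at least 10000 exonic bases minus that of 1554 genes with at most 1000. It ran from 0.05 to 0.21 in WT and from -0.16 to 0.04 in p16KO, without overlap. It ran from -0.14 to 0.17 in AppNLGF and from -0.36 (library 21) to 0.04 in AppNLGF_p16KO. Over the 23 libraries, Apoe had a Pearson's r of -0.84 and a Spearman's rho of -0.84 with the index (permutation p = 1e-05 for r, the smallest that 100000 permutations can give, and 2e-05 for rho; 1e-04 and 2e-04 after Benjamini-Hochberg adjustment over the 10 members). By the same test Nr1h2 had r = -0.66 and rho = -0.57 (adjusted permutation p = 0.00207 and 0.0125), and Nr1h3 r = -0.47 and rho = -0.37 (0.0410 and 0.135). Exons sum to 2.14 kb in Apoe, 3.35 kb in Nr1h2 and 2.52 kb in Nr1h3. Lpl had r = 0.71 and rho = 0.60 (0.00105 and 0.00907), Lrp1 r = 0.64 and rho = 0.63 (0.00260 and 0.00730) and Abca1 r = 0.55 and rho = 0.54 (0.0127 and 0.0163), with 10.5, 17.7 and 10.4 kb of exons. Lpl, Lrp1 and Abca1 are themselves among the 1494 long genes of the index, so their p-values are not independent of how it was made. For Abcg1 (7.30 kb), Soat1 (9.79 kb), Ch25h (1.39 kb) and Cyp46a1 (3.29 kb) r lay between -0.16 and -0.04, with adjusted permutation p of at least 0.680 for r and 0.353 for rho. Without AppNLGF_p16KO 21 and 22, which lie farthest from the median index, r was -0.78 for Apoe, 0.62 for Lpl, 0.65 for Lrp1, 0.41 for Abca1, -0.43 for Nr1h2 and -0.26 for Nr1h3. The permutations mixed libraries of all genotypes, so their p-values also take in differences between genotypes. By deviations from the genotype means, for which no p was computed, r was -0.73 for Apoe, 0.72 for Lpl, 0.51 for Lrp1, 0.38 for Abca1, -0.54 for Nr1h2 and -0.49 for Nr1h3. With the index as a covariate, also added later, Apoe differed by 0.12 in p16KO minus WT (adjusted p = 0.834) and by 0.05 in the average p16 contrast (adjusted p = 1.00). Other members also moved by over 1.5 times with this covariate. In p16KO minus WT Lrp1 went to -0.02, and in AppNLGF_p16KO minus AppNLGF Lrp1 went to -0.17, Lpl to -0.07 and Abca1 to -0.10. In AppNLGF minus WT Apoe went to 0.09, Nr1h2 to 0.04 and Nr1h3 to 0.09, while Lpl went to 0.47 and Ch25h to 1.60, with 0 of 10 called. Ch25h went to 0.78 in the App average and to -0.03 in AppNLGF_p16KO minus p16KO. The index separates WT from p16KO, so its part and that of genotype cannot be told apart.

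**Figure D3:**
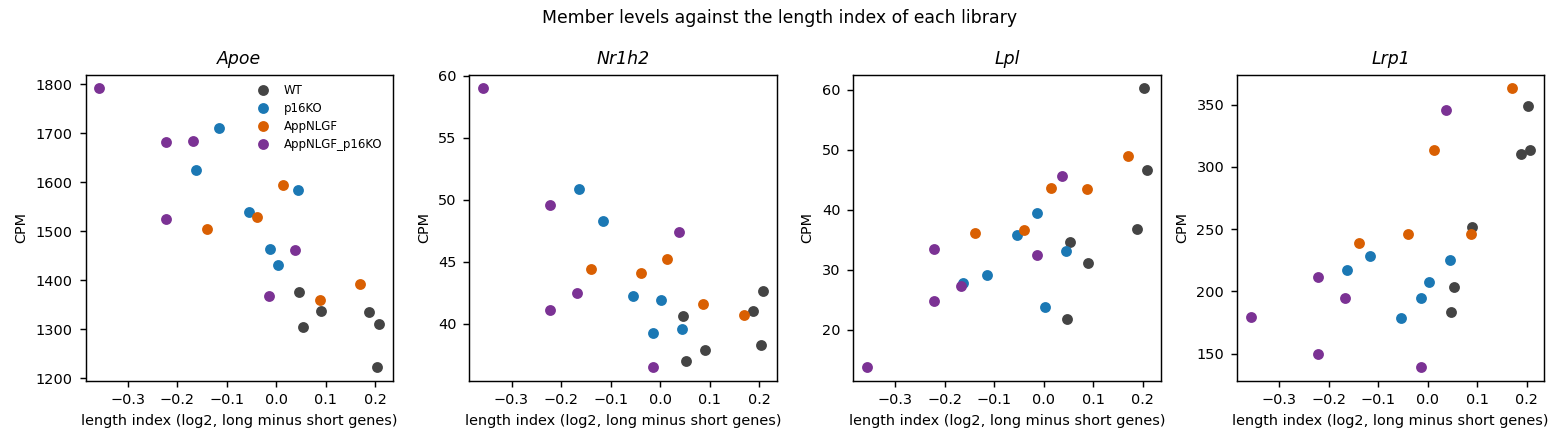
CPM of 4 members against the length index of each library (log2 units; higher means more signal from long genes), colored by genotype. Apoe (r = -0.84) and Nr1h2 (r = -0.66) slope down and Lpl (r = 0.71) and Lrp1 (r = 0.64) slope up along the index, and AppNLGF_p16KO 21 sits at the far left at -0.36.

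The genes most like Apoe over the 23 libraries were Abhd4 (r = 0.93), Bckdha (r = 0.92) and Rps15 (r = 0.92). By deviations from the genotype mean they were Abhd4 (r = 0.89), Btbd6 (r = 0.88) and Rxrb (r = 0.88), an RXR that pairs with the liver X receptors. All 5 have exons of 0.63 to 3.97 kb. Of 10 genes listed around Apoe on chromosome 7, 7 were tested. In any App contrast or in p16KO minus WT 0 were called, beside at most 0.793% of all genes. In the App average they lay from -0.10 (Relb) to 0.68 (Bcl3, mean 0.216 CPM). Tomm40 (0.13 ± 0.04, adjusted p = 0.0435) and Clptm1 (0.12 ± 0.04, adjusted p = 0.0395) rose in the added p16 average, which called 13% of all genes. These calls were lost on leaving out 15 and 13 of the 23 libraries in turn, and under 4 and 3 of 8 other alternatives. Over those alternatives the changes were as small as 0.058 and 0.011.

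Lpl (ENSMUSG00000015568, chromosome 8, 68880491 to 68907448, plus strand) varied most after Ch25h, by 4.37-fold over the libraries. WT ran from 21.7 to 60.3 CPM with a median of 35.7, and p16KO from 23.7 to 39.4 with a median of 31.1. AppNLGF libraries held 36.7, 36.1, 43.6, 49.0 and 43.5 CPM, and AppNLGF_p16KO ran from 13.8 (library 21) to 45.7 with a median of 29.9. All 4 groups overlapped. Lpl differed by 0.12 ± 0.24 in AppNLGF minus WT (adjusted p = 0.950) and by -0.50 ± 0.24 in AppNLGF_p16KO minus AppNLGF (adjusted p = 0.218). Lpl is also a gene of plaque-associated microglia. The genes most like it were Grip1 (r = 0.96), Dclre1c (r = 0.96) and Zfp608 (r = 0.95), with exons of 8.06 to 9.32 kb. In the average p16 contrast it was -0.40 ± 0.17 (adjusted p = 0.116), called without AppNLGF_p16KO 23 (0.0328; 26.5% of all genes called) or WT 1 (0.0473; 18.9%), and 0.09 with the index as covariate.

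Abca1 (ENSMUSG00000015243, chromosome 4, 53030787 to 53159895, minus strand), the gene of the promoter with the LXR motif, loads lipid-poor ApoE. WT ran from 53.8 to 64.8 CPM (median 59.9), p16KO from 51.2 to 68.0 (median 58.2) and AppNLGF_p16KO from 45.1 to 59.6 (median 51.8). AppNLGF libraries held 55.4, 52.9, 63.4, 67.0 and 58.2 CPM. Groups overlapped throughout, with AppNLGF_p16KO lowest. AppNLGF and WT differed by 0.00 ± 0.08, with a 95% interval from -0.15 to 0.16. AppNLGF_p16KO was lower than p16KO by -0.17 ± 0.07 (adjusted p = 0.549) and than AppNLGF by -0.19 ± 0.08 (adjusted p = 0.151), each with 5 of 6 libraries below the other mean. The interaction was -0.18 ± 0.10 (adjusted p = 0.897). Elmsan1 (r = 0.85), Rrp1b (r = 0.82) and Epas1 (r = 0.81) were most like it.

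Abcg1 (ENSMUSG00000024030, chromosome 17, 31057675 to 31117988, plus strand) passes cholesterol to particles that already hold lipid. WT ran from 78.6 to 90.1 CPM (median 83.8), p16KO from 82.8 to 103 (median 90.9) and AppNLGF_p16KO from 75.8 to 93.6 (median 83.6). AppNLGF libraries were tightly grouped at 78.3, 80.1, 79.5, 84.0 and 78.6 CPM. Groups overlapped. Abcg1 was 0.12 ± 0.06 higher in p16KO than in WT (adjusted p = 0.328), in 5 of 6 libraries, and -0.09 ± 0.04 in the App average (adjusted p = 0.466). Chrm4 (r = 0.84), Tinf2 (r = 0.78) and Pim3 (r = 0.77) were most like it.

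The 2 liver X receptors differed in level, at 11.8 CPM per kb for Nr1h2 and 1.12 for Nr1h3 in WT. Nr1h2 (ENSMUSG00000060601, chromosome 7, 44549616 to 44553951, minus strand) ran from 37.0 to 42.6 CPM in WT (median 39.5) and from 39.3 to 50.9 in p16KO (median 42.1). AppNLGF libraries held 44.1, 44.4, 45.2, 40.7 and 41.6 CPM, and AppNLGF_p16KO ran from 36.6 to 59.0 (median 44.9), with library 21 highest. Its App difference was 0.13 ± 0.09 without p16 loss (5 of 5 libraries above the WT mean, adjusted p = 0.754) and 0.07 ± 0.08 with it (adjusted p = 0.857). Like Apoe, it was lower in libraries with a higher length index (r = -0.66). Fbxw8 (r = 0.92), Nagpa (r = 0.91) and Vegfb (r = 0.91) were most like it.

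Nr1h3 (ENSMUSG00000002108, chromosome 2, 91184061 to 91202834, minus strand) is the receptor of macrophages and liver. WT ran narrowly from 2.53 to 3.00 CPM (median 2.86), p16KO from 2.40 to 3.54 (median 3.37) and AppNLGF_p16KO from 2.52 to 4.37 (median 2.89). AppNLGF libraries held 2.89, 4.48, 3.96, 2.97 and 2.27 CPM. The spread in AppNLGF reached both above and below all WT libraries, and the App difference was 0.24 ± 0.16 (adjusted p = 0.723) against -0.00 ± 0.15 with p16 absent (adjusted p = 0.997). Kifc1 (r = 0.76), Faap20 (r = 0.76) and C1ql1 (r = 0.76) were most like it.

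Lrp1 (ENSMUSG00000040249, chromosome 10, 127538161 to 127621148, minus strand), the large endocytic receptor for ApoE, varied 2.60-fold. WT ran from 183 to 349 CPM (median 281), p16KO from 178 to 228 (median 212) and AppNLGF_p16KO from 139 to 346 (median 187). AppNLGF libraries held 246, 239, 313, 363 and 246 CPM. The groups overlapped, and AppNLGF_p16KO 23 stood apart from the rest of its group at 346 CPM, with the next at 212. Lrp1 differed by 0.07 ± 0.20 in AppNLGF minus WT (adjusted p = 0.970), by -0.37 ± 0.19 in p16KO minus WT (6 of 6 below the WT mean, adjusted p = 0.355) and by -0.47 ± 0.20 in AppNLGF_p16KO minus AppNLGF (adjusted p = 0.168). Without AppNLGF_p16KO 23 the last was -0.69 and called (adjusted p = 0.00860), in a fit that called 4156 genes, 21.5% of those tested, where the full set called 6.

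In the average p16 contrast Lrp1 was -0.42 ± 0.14 (adjusted p = 0.0505), just past the threshold. It was called by DESeq2 (0.0327; 17.4% of all genes called), with 15 reads in 90% of libraries (0.0424; 16.7%), without robust dispersion (0.0368; 13.7%) and with sex as a covariate (0.0460; 15.7%). It was also called without AppNLGF 14 (0.0442; 14.5%), AppNLGF_p16KO 23 (0.00243; 26.5%), WT 1 (0.0228; 18.9%) or WT 6 (0.0433; 10.8%). With the length index as covariate it was -0.10 (adjusted p = 1.00). Lrp1 has 17.7 kb of exons. The genes most like it were Adgrl1 (r = 0.99, 8.59 kb of exons), Plec (r = 0.98, 18.1 kb) and Prrc2b (r = 0.98, 11.3 kb), a closeness that no other member reached.

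Soat1 (ENSMUSG00000026600, chromosome 1, 156424525 to 156474331, minus strand) esterifies surplus cholesterol and was among the steadiest members. WT ran from 43.0 to 51.9 CPM (median 47.7), p16KO from 46.2 to 50.4 (median 49.0) and AppNLGF_p16KO from 39.6 to 53.3 (median 47.9). AppNLGF libraries held 49.4, 41.1, 44.2, 50.0 and 44.6 CPM. All groups overlapped, and the differences were -0.06 ± 0.07 in AppNLGF minus WT and 0.02 ± 0.06 in p16KO minus WT, with 95% intervals from -0.20 to 0.07 and from -0.11 to 0.15. Slc33a1 (r = 0.80), Pcgf3 (r = 0.78) and Slc10a7 (r = 0.78) were most like it.

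Cyp46a1 (ENSMUSG00000021259, chromosome 12, 108334381 to 108362234, plus strand) makes 24S-hydroxycholesterol in neurons and had the smallest spread, a coefficient of variation of 6.03% over 23 libraries. WT ran from 135 to 151 CPM (median 147), p16KO from 127 to 153 (median 142) and AppNLGF_p16KO from 137 to 156 (median 146). AppNLGF libraries held 136, 127, 146, 135 and 132 CPM. Groups overlapped, with AppNLGF lowest in the mean (135 ± 7.10 CPM, n = 5). Cyp46a1 was -0.09 ± 0.05 in AppNLGF minus WT (adjusted p = 0.672) and 0.12 ± 0.05 in AppNLGF_p16KO minus AppNLGF, with 6 of 6 libraries above the AppNLGF mean (adjusted p = 0.189). Wbp2 (r = 0.77), Nop2 (r = 0.77) and Extl1 (r = 0.75) were most like it.

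Ch25h (ENSMUSG00000050370, chromosome 19, 34473778 to 34475164, minus strand), the intronless gene of the second promoter above, makes 25-hydroxycholesterol. It had 4 to 337 reads per library, the fewest of the 10 genes. WT ran from 0.198 to 0.510 CPM with a median of 0.393. In p16KO, library 7 held 7.41 CPM and the other 5 ran from 0.0771 to 0.536. AppNLGF libraries held 0.876, 0.786, 0.904, 0.657 and 0.562 CPM, and AppNLGF_p16KO ran from 0.524 to 1.11 with a median of 0.964. Each AppNLGF library was above each WT library, which 1.05% of all genes also showed.

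With all libraries, Ch25h differed by 1.06 ± 0.80 in AppNLGF minus WT (5 of 5 above the WT mean, adjusted p = 0.775), by -0.76 ± 0.70 in AppNLGF_p16KO minus p16KO (adjusted p = 0.822) and by 0.15 ± 0.53 in the App average (adjusted p = 0.965). The interaction was -1.83 ± 1.06 (adjusted p = 0.897) and p16KO minus WT was 2.03 ± 0.75 (adjusted p = 0.200). Without p16KO 7 the App average was 1.23 and called (adjusted p = 0.00444), in a fit that called 0.759% of all genes. Without it AppNLGF_p16KO minus p16KO became 1.40 (adjusted p = 0.0985), the interaction 0.34 (adjusted p = 0.976) and p16KO minus WT -0.14 (adjusted p = 0.875). AppNLGF minus WT, which does not use that library, stayed at 1.06 but its adjusted p became 0.258, and it was 0.131 when only WT and AppNLGF were fitted.

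Library p16KO 7 also had the highest level of Lcn2 and Lrg1. Lcn2, which encodes lipocalin-2, was at 19.2 CPM there and at 0.0183 to 1.15 in the other 22 libraries. Lrg1 was at 9.61 CPM against 0.269 to 0.932. These 2 genes were chosen after their values were seen. The summed markers of microglia (442 CPM), plaque-associated microglia (397) and border and blood macrophages (8.40) of that library lay within the range of its group. The genes most like Ch25h over 23 libraries were Tnfsf8 (r = 0.86), B3gnt3 (r = 0.82) and Clec2d (r = 0.79). Without p16KO 7 these were 0.82, 0.69 and 0.66. By deviations from the genotype mean they were Tnfsf8 (r = 0.89), Clec2d (r = 0.82) and Ackr1 (r = 0.81), and for Ackr1 r over all libraries but p16KO 7 was 0.45. Spearman's rho of these deviations was 0.41 for Tnfsf8, 0.71 for Clec2d and 0.63 for Ackr1. Tnfsf8 was at 0.835 CPM in p16KO 7 and at most 0.309 in the other 22 libraries. With 4 to 337 reads of Ch25h, these likenesses rest on sparse counts.

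**Figure D4:**
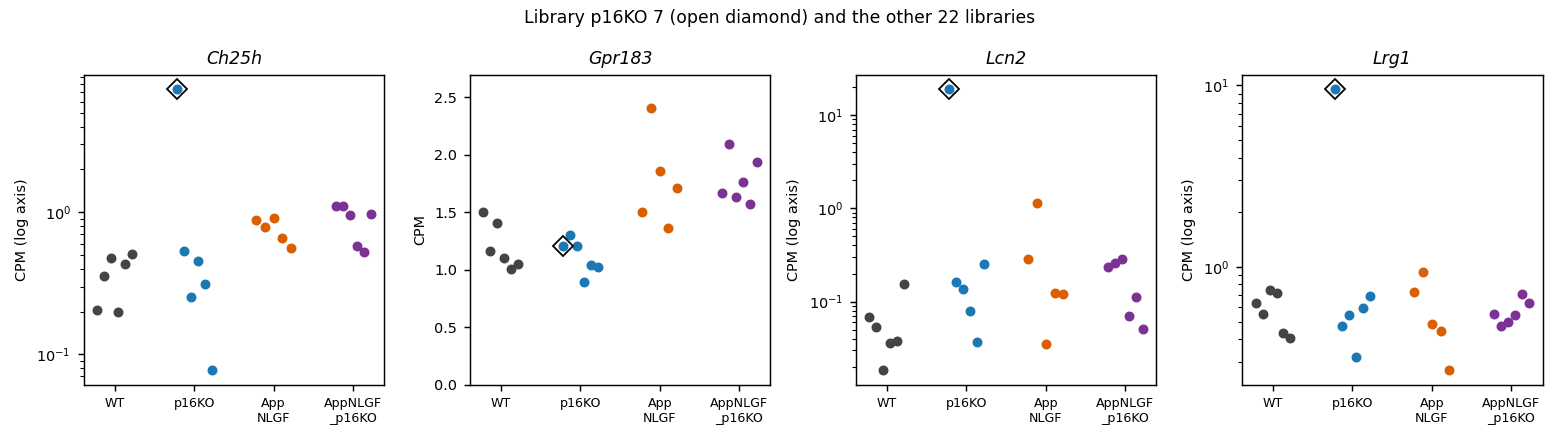
CPM by library for Ch25h, Gpr183, Lcn2 and Lrg1 (log axes except for Gpr183, whose axis starts at 0), with p16KO 7 in an open diamond. That library is highest of 23 for Ch25h, Lcn2 and Lrg1 but lies within its group for Gpr183.

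Summed markers of microglia were higher in the knock-in groups, without overlap with the other groups. The 13 genes of plaque-associated microglia summed to 486 to 574 CPM (AppNLGF) and 489 to 635 (AppNLGF_p16KO). Without the knock-in they summed to 328 to 397 CPM (WT) and 375 to 477 (p16KO), with 0 of the 13 at 0. Of these 13, 8 rose in AppNLGF minus WT (0.319% of all genes called), 7 in AppNLGF_p16KO minus p16KO (0.247%) and 8 in the App average (0.793%), among them Cst7 (5.08 ± 0.24 in the average, adjusted p = 1.25e-12) and Trem2 (0.93 ± 0.06, adjusted p = 1.54e-10), a receptor that binds ApoE. The 12 general microglial markers summed to 487 to 562 CPM (AppNLGF) and 511 to 560 (AppNLGF_p16KO), against 404 to 451 (WT) and 426 to 462 (p16KO). Of these 12, 4 rose in the App average and 1 in each of the 2 single App comparisons. Of the astrocyte markers 1 of 12 rose in the App average, Gfap (0.52 ± 0.06, adjusted p = 1.49e-05). The part of microglial number or state in the Ch25h difference was not tested. These marker lists were chosen with results of these data known.

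Other genes of lipid transport were followed in 7 lists, with 101 genes listed, 90 tested and the members left out. In AppNLGF minus WT, 0 of 90 were called, beside 0.319% of all genes (median log2 change 0.04), and in AppNLGF_p16KO minus p16KO 2 of 90 rose, with Gpr183 among them, beside 0.247% of all genes (median 0.01), a count of 0 when only those groups were fitted. In the App average 1 of 90 rose, Gpr183, beside 0.793% of all genes (median 0.01). None of the 90 was called in p16KO minus WT, in AppNLGF_p16KO minus AppNLGF or in the interaction by edgeR. DESeq2 called 3, 6 and 0 of them, and 469, 676 and 1 of all genes.

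Gpr183 encodes EBI2, which guides immune cells toward 7 alpha,25-dihydroxycholesterol, made from the product of Ch25h by CYP7B1. It ran from 1.01 to 1.5 CPM in WT (median 1.13), from 0.894 to 1.30 in p16KO (median 1.12) and from 1.57 to 2.10 in AppNLGF_p16KO (median 1.72). AppNLGF libraries held 1.5, 2.41, 1.86, 1.37 and 1.71 CPM. Each AppNLGF_p16KO library was above each p16KO library, which 0.335% of all genes also showed. It rose by 0.62 ± 0.11 in the App average (adjusted p = 0.00155), a call kept on leaving out each of the 23 libraries in turn. It rose by 0.68 ± 0.15 in AppNLGF_p16KO minus p16KO (adjusted p = 0.0427), which was lost on leaving out 11 of those 12 libraries in turn, with adjusted p between 0.0511 and 0.137. In AppNLGF minus WT it was 0.55 ± 0.15 (adjusted p = 0.161). Cyp7b1 itself was 0.01 ± 0.05 in the App average (adjusted p = 0.991). Gpr183 is known in brain from microglia, of whose 12 general markers 4 rose in the App average and 1 in AppNLGF_p16KO minus p16KO, and their part was not tested.

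**Figure D5:**
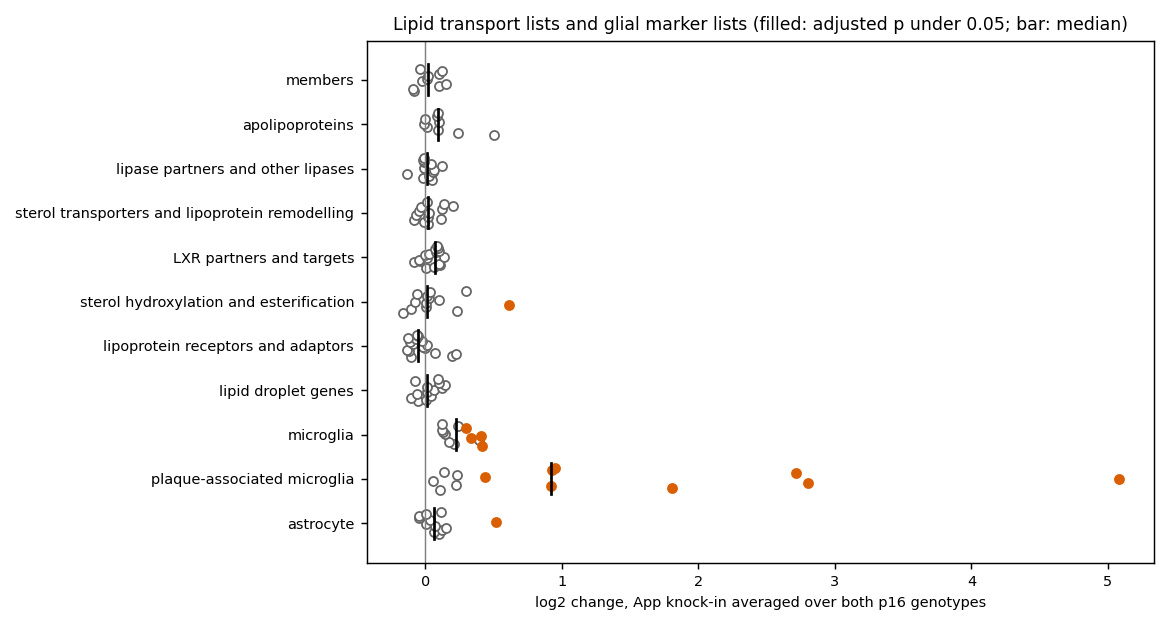
Log2 change with the App knock-in, averaged over both p16 genotypes, of each tested gene in the members, the 7 lipid transport lists and 3 glial marker lists (filled: adjusted p under 0.05; bars: list medians). Of the lipid lists Gpr183 alone is filled, at 0.62, while 8 of 13 plaque-associated microglial genes are filled, up to 5.08.

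By role, the other lists lay close to 0 in the App average. The 9 apolipoproteins tested had a median of 0.09, with Clu (apolipoprotein J, mean 1010 CPM) at 0.09 ± 0.04 (adjusted p = 0.436) and Apod at 0.10 ± 0.11. The 13 transporters and remodelling genes had a median of 0.02, with Abca2 at 0.02 ± 0.08 and Abca3 at -0.01 ± 0.06. The 16 partners and targets of the liver X receptors had a median of 0.07, with 12 of 16 positive, and their most abundant genes, the desaturases Scd2 (0.07 ± 0.05) and Scd1 (0.10 ± 0.07), were not called. Lipases and their partners (12 tested) had a median of 0.01, with Sel1l at -0.01 ± 0.04 and Mgll at 0.04 ± 0.05. Lipid droplet genes (13 tested) had a median of 0.01, with Acsl6 at 0.00 ± 0.03 and Dgat2 at -0.06 ± 0.05. Lipoprotein receptors and adaptors (16 tested) had a median of -0.06, with 4 of 16 positive, with Sort1 at -0.05 ± 0.03 and Sorl1 at -0.12 ± 0.04 (adjusted p = 0.212).

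In the added p16 average, 4 of the 90 rose and 6 fell, a share near the 13% of all genes called. Lcat, which esterifies cholesterol on ApoE particles, rose by 0.27 ± 0.06 (adjusted p = 0.0139), and Rxrb rose by 0.16 ± 0.04 (adjusted p = 0.0179). Sorl1, a sorting receptor for APP and lipoproteins, fell by 0.16 ± 0.04 (adjusted p = 0.0167). The count of 10 became 3 without AppNLGF 16, 22 without AppNLGF_p16KO 23 and 1 without AppNLGF_p16KO 21 and 22, where Sorl1 was called (adjusted p = 0.0433) and Lcat (0.0538) and Rxrb (0.0658) were not. With the length index as covariate 0 of the 90 were called, with Lcat at 0.09, Rxrb at 0.05 and Sorl1 at -0.13, and the part of the index in these calls cannot be told apart from that of genotype.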

How the data were processed

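Poly-A RNA was sequenced from 23 hippocampal samples in stranded libraries made from 350 ng of RNA with 12 PCR cycles, read as 50-base single ends, per the labels' protocols. The series' design text states trimming (cutadapt 4.2), removal of ribosomal reads (Bowtie2 2.3.5) and alignment to GRCm38 (STAR 2.7.10b); the submitters' processing notes give these versions and DESeq2 1.45.3. The deposited values are raw counts of reads that the authors assigned uniquely to 1 gene of Ensembl 102, per the labels. The labels also list mm39; of 37060 genes shared with GENCODE M21 (GRCm38), 36795 had identical coordinates, including all 10 members, so GRCm38 positions are given. No molecular identifiers are described, so PCR copies count as reads.

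Genes were tested with edgeR 4.0.16 (R 4.3.3; filterByExpr with a minimum count of 10, TMM, robust quasi-likelihood F test, two-sided, 1 mean per genotype, all 23 libraries), with Benjamini-Hochberg adjustment at 0.05. CPM used TMM-scaled totals. On simulated counts the procedure was tested for p16KO minus WT and AppNLGF minus WT. Its recovery of small changes is not reported here, so a gene that was not called is not shown to be unchanged. Likeness is Pearson's r of log2 CPM (prior count 2), without Gm and Rik symbols, and is a description. Motifs were searched in RefSeq promoter windows (GRCm38.p6). Alternatives were DESeq2 1.42.0, RLE factors, other count filters, no robust dispersion, fits of the compared groups, a sex covariate, omission of each library and of AppNLGF_p16KO 21 and 22. Added after seeing the data were a length covariate, the average p16 contrast and omission of p16KO 7 where its group is not compared. All members were named; of each list, the genes called or else the 2 most abundant. Results for some listed genes are not reported here. The members and lists were chosen with earlier results of these data known. The p-values of the genotype comparisons weigh a difference against the spread between these mice.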

Additional observations from a re-analysis of the deposited data

Results flagged for a closer look

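Among 40 groups (10 members in 4 genotypes), 2 held a library far from the others by Dixon's criterion, where chance gives about 1 in 20. Ch25h in p16KO 7 was 7.41 CPM, with the next p16KO library at 0.536; the gap was 0.937 of the group's range, above the critical 0.625. Lrp1 in AppNLGF_p16KO 23 was 346 CPM, with the next at 212 and a gap of 0.651 of the range. Both libraries decided a call, as given with each gene, and what set them apart was not tested.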

How the results depend on the processing

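Precision is limited by 5 or 6 mice per group. No paired analysis was possible because the labels number the animals 1 to 23 across groups and no number is shared. Where no value is given beside a change, the cause was not tested.

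Genes called. In p16KO minus WT (60), 469 were called by DESeq2, 356 by a fit of the compared groups, 267 without AppNLGF_p16KO 21 and 22, 9 with the length covariate and 7 (without p16KO 9) to 239 (without p16KO 8) on leaving out 1 library. In AppNLGF_p16KO minus AppNLGF (6) these were 676, 0, 15, 1 and 2 (without AppNLGF 16) to 4156 (without AppNLGF_p16KO 23), with 3 at 15 reads in 90% of libraries and 17 without a count filter. In AppNLGF_p16KO minus p16KO (48) they were 101, 19, 18, 23 and 29 (without AppNLGF_p16KO 21 or p16KO 11) to 61. The added p16 average (2522) had 474 without AppNLGF_p16KO 21 and 22, 12 with the length covariate, 1364 without a count filter and 762 (without AppNLGF 16) to 5117 (without AppNLGF_p16KO 23). DESeq2 called 153 in AppNLGF minus WT (62), 285 in the App average (154) and 1 in the interaction (0).

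Members called. In p16KO minus WT (0) 1 was called by DESeq2, by the compared groups and without AppNLGF_p16KO 21 and 22, and 0 to 1 without 1 library (1 without p16KO 8). The count was 0 to 1 in the App average (1 without p16KO 7) and in AppNLGF_p16KO minus AppNLGF (1 without AppNLGF_p16KO 23). In the added p16 average (1) it was 2 by DESeq2, at 15 reads in 90% of libraries, without robust dispersion and with the sex covariate, 0 without AppNLGF_p16KO 21 and 22 and with the length covariate, and 0 to 3 without 1 library.

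Of the 90 other lipid genes, p16KO minus WT (0) had 3 by DESeq2 and 2 by the compared groups and without AppNLGF_p16KO 21 and 22. AppNLGF_p16KO minus AppNLGF (0) had 6 by DESeq2 and 0 to 20 without 1 library. AppNLGF_p16KO minus p16KO (2) had 1 with RLE factors, without a count filter and without robust dispersion, 0 by the compared groups, without AppNLGF_p16KO 21 and 22 and with either covariate, and 0 to 2 without 1 library. The App average (1) had 1 to 2. The added p16 average (10) had 1 without AppNLGF_p16KO 21 and 22, 0 with the length covariate, 6 without a count filter and 3 to 22 without 1 library.

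Signs reversed in genes that were not called. With the length covariate these were Apoe (-0.054) and Nr1h2 (-0.011) in AppNLGF_p16KO minus p16KO, Soat1 (-0.0037) in p16KO minus WT, Lpl (0.093) in the p16 average, and Abca3 (0.071), Acsl6 (-0.0010) and Cyp7b1 (-0.012) in the App average. Without AppNLGF_p16KO 21 and 22 they were Apoe (-0.048) and Nr1h2 (-0.062) in AppNLGF_p16KO minus p16KO. With the sex covariate they were Nr1h3 (0.0019) in that comparison and Acsl6 (-0.0015) in the App average, the latter also with DESeq2 (-0.00245) and RLE factors (-0.00241).

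On leaving out 1 library, the signs of AppNLGF minus WT crossed 0 for Abca1 (-0.043 to 0.044), Lpl (-0.0036 to 0.29) and Lrp1 (-0.039 to 0.16). In AppNLGF_p16KO minus p16KO they did for Apoe (-0.014 to 0.063), Nr1h2 (-0.0088 to 0.13), Nr1h3 (-0.12 to 0.055) and Ch25h (-1.02 to 1.40). In p16KO minus WT they did for Soat1 (-0.0048 to 0.048) and Ch25h (-0.14 to 2.28), whose interaction ran from -2.08 to 0.34. In the App average they did for Abca2 (-0.030 to 0.047), Abca3 (-0.042 to 0.027), Acsl6 (-0.0063 to 0.013), Cyp7b1 (-0.017 to 0.031) and Sel1l (-0.025 to 0.0047). The other differences of the genes named kept their direction under the alternatives run.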
